A study of Mus musculus with 2 samples.

Results

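The genes described here carry glucose to pyruvate and pyruvate onward to lactate or into the mitochondrion. They are 36 genes out of 55536 annotated genes, taken as a fixed list of symbols: the glucose transporter Slc2a3, the enzymes and isoenzymes of glycolysis, the kinases that set fructose-2,6-bisphosphate, lactate dehydrogenase, the monocarboxylate transporters, the pyruvate dehydrogenase complex with its kinases, and the mitochondrial pyruvate carrier. The rule that names them uses no measured value. Aldoa alone matched 2 records, and the one with more counts was used. The other record held 25 and 33 expected counts in the 2 libraries.

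The samples were total RNA from cerebral cortex, left side, of 2 males of the F1 hybrid B6CASTF1/J (C57BL/6J crossed with CAST/EiJ). The mice were 10 days old, no treatment is named, and each library took 300 ng of RNA with ERCC spike-ins (synthetic control RNAs). The 2 libraries, called replicate 1 and replicate 2, form a single group. They held 31254528 and 30218308 expected counts (reads assigned to a gene by a model that splits shared reads). The labels number the animals separately but give both libraries the same donor identifier, so the spread between them may be partly technical. There is no second group, and the values are described without p-values; errors are SDs over n = 2.

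Glycolysis splits glucose into pyruvate through a chain of cytosolic enzymes, most of which exist as isoenzymes from separate genes. Pyruvate is then reduced to lactate, which crosses membranes through monocarboxylate transporters, or enters mitochondria through a carrier and is oxidised by the pyruvate dehydrogenase complex, which its kinases switch off. In the brain, glycolysis and lactate exchange are often discussed as divided between neurons and astrocytes, and several isoenzymes are used as markers of those cells.

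Levels are given as TPM (a level per length, scaled so that every library has an equal sum) of the first of 2 deposited quantifications, unless the second is named. All 36 genes reached 1 TPM in both libraries, beside 59.6% of nuclear protein-coding genes. Levels of 100 TPM or more in both libraries were reached by 16 of the 36, beside 4.22% of nuclear protein-coding genes. A further 14 had a mean between 10 and 100 TPM, and 6 lay under 10 TPM: Pdk4, Eno3, Pgam2, Pfkfb1, Slc16a3 and Hk2. Together the 36 genes took 1.03% and 1.01% of the TPM of nuclear protein-coding genes in replicates 1 and 2.

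Gapdh was the highest of the 36 and Hk2 the lowest. From the top the order ran Gapdh, Aldoa, Pkm, Gpi1, Pgam1, Tpi1, Ldha, Eno2, Ldhb and Pfkp. Neighbours were taken as apart only where both libraries gave the same order and the gap of the means exceeded the summed SDs, which held for 22 of the 35 neighbouring pairs. Pgam1, Tpi1, Ldha and Eno2 were not apart from their neighbours among these 4, nor were Pgk1, Aldoc, Eno1, Pdha1 and Hk1, which lay between 145 and 162 TPM. The lowest neighbours (Pfkfb1, Slc16a3 and Hk2) were not apart either.

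**Figure D1:**
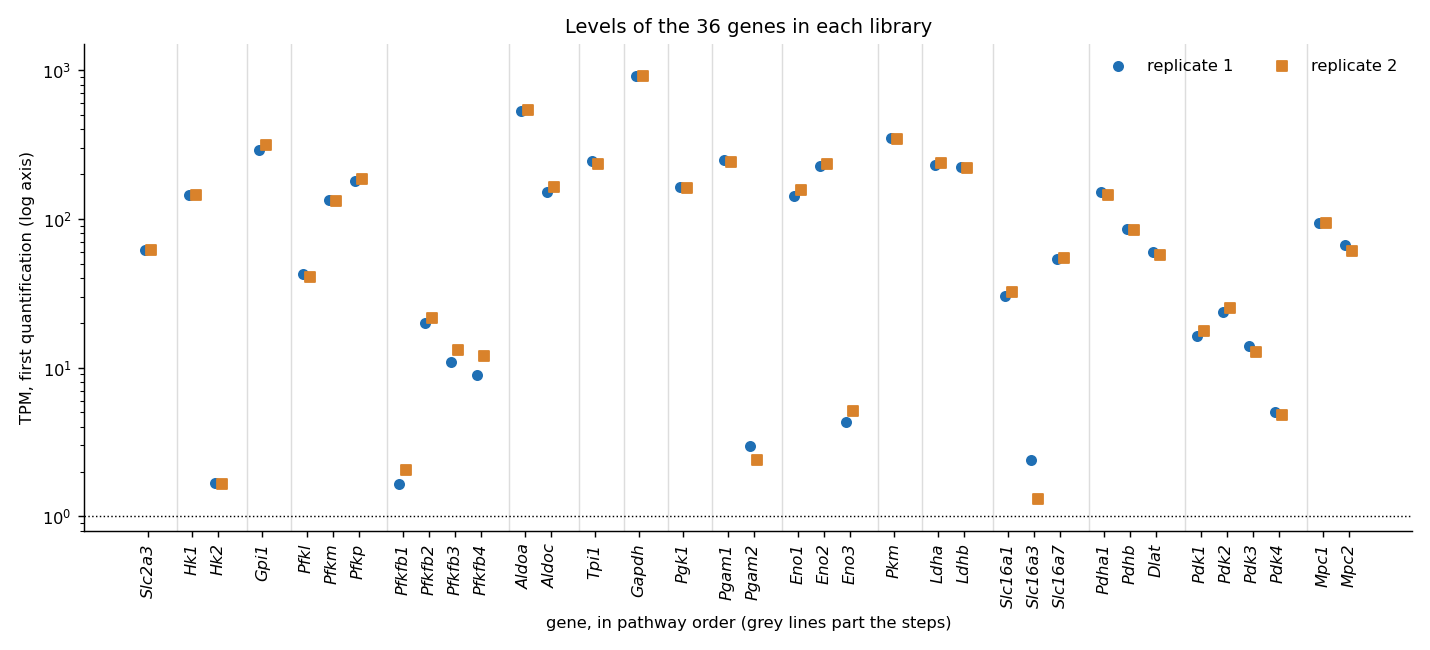
TPM of each gene in the first quantification on a log axis, genes in pathway order and parted by step, with circles for replicate 1 and squares for replicate 2. All points lie above the dotted line at 1 TPM, and the widest vertical gap between the libraries belongs to Slc16a3 (2.38 and 1.31 TPM).

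Slc2a3, which encodes the high-affinity glucose transporter GLUT3 of neurons, was at 61.9 and 62.3 TPM in replicates 1 and 2. Slc2a1, which encodes GLUT1 of the blood-brain barrier and glia and is not one of the 36, was at 33.1 and 30.2 TPM. Slc2a3 exceeded it 1.97 ± 0.13-fold in the first quantification and 1.53 ± 0.076-fold in the second. Hexokinase, which traps glucose as its phosphate, was almost entirely Hk1. Hk1 stood at 144 and 146 TPM and Hk2, the inducible form, at 1.69 and 1.66 TPM, a share of 98.9 ± 0.024% for Hk1. Hk1 exceeded Hk2 by 86.6 ± 1.8-fold. Outside the 36, the hexokinase-related gene Hkdc1 was at 2.74 and 2.31 TPM and Adpgk, which phosphorylates glucose with ADP, at 7.80 and 9.22 TPM, both above Hk2 in each library.

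Gpi1, the isomerase that makes fructose-6-phosphate, was at 289 and 314 TPM. Of that level 60.9 ± 7.2% lay on transcripts annotated as non-coding, retained-intron or subject to nonsense-mediated decay, and in the second quantification 72.7 ± 8.1% did. Phosphofructokinase, which commits the sugar to glycolysis, is assembled from 3 kinds of subunit, and all 3 were expressed. Pfkp, the platelet-type subunit, was at 180.4 and 187 TPM. Pfkm, the muscle-type subunit, was at 134 and 131 TPM. Pfkl, the liver-type subunit, was at 42.3 and 40.9 TPM. Over all transcripts of each gene, the shares were 51.3 ± 0.99%, 37.0 ± 0.64% and 11.6 ± 0.35%. This order was the same in both libraries and both quantifications. Transcripts not annotated as coding held 46.2 ± 0.079% of the Pfkp TPM, 0% of Pfkm and 21.6 ± 0.26% of Pfkl. In the second quantification they held 40.3 ± 3.9%, 0% and 21.6 ± 0.47%. With those transcripts left out, Pfkm would be above Pfkp in both quantifications. By CPM (counts scaled to an equal library total), Pfkp was 1.08 times as high in replicate 2 as in replicate 1, with a 95% Clopper-Pearson interval of 1.06 to 1.11 that covers counting error only. Part of the Pfkp level came from Pfkp-212, an 8681-base transcript with a retained intron that took 15.2% and 17.7% of the gene's TPM. The coding transcripts Pfkp-201 and Pfkp-207 took 34.9 ± 0.034% and 18.1 ± 0.27%.

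The 4 PFKFB genes encode bifunctional enzymes that make and break fructose-2,6-bisphosphate, the strongest activator of phosphofructokinase. They summed to 45.1 ± 5.2 TPM. Pfkfb2, the heart-type form, led at 19.8 and 21.6 TPM. Pfkfb3, whose kinase activity far outweighs its phosphatase activity, was at 10.97 and 13.2 TPM. Pfkfb4 was at 8.97 and 11.98 TPM. These last genes were not apart from each other, and Pfkfb1, the liver-type form, was far lower at 1.66 and 2.04 TPM. Exons of the opposite-strand gene Apex2 overlap Pfkfb1 and held 401 and 468 counts against 37 and 45 for Pfkfb1. Yod1, opposite Pfkfb2, held 599 and 556 counts against 1083 and 1115. The sources used here do not say whether the counting used strand, so these values are uncertain, that of Pfkfb1 most of all.

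Aldolase splits fructose-1,6-bisphosphate. Aldoa (ENSMUSG00000030695.16, mm10 chromosome 7, 126795234 to 126800751, minus strand), the general isoenzyme, was at 535 and 539.6 TPM. Aldoc, the brain isoenzyme that is widely used as an astrocyte marker, was at 151 and 165 TPM, higher in replicate 2. Aldoa took 77.3 ± 0.94% of the pair, with no overlap between the genes in either library. All 7 astrocyte markers were detected, with a summed level of 1014 and 1041 TPM and 4 of the 7 higher in replicate 2. In bulk tissue, fewer cells of a type and less RNA per cell cannot be told apart. Fam57b, opposite Aldoa, held 2675 and 2782 counts against 15233 and 14482 for Aldoa. Tpi1, which interconverts the triose phosphates, was at 246 and 235 TPM.

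Gapdh (ENSMUSG00000057666.18, mm10 chromosome 6, 125161715 to 125166467, minus strand) encodes the dehydrogenase that forms 1,3-bisphosphoglycerate. It was at 917 and 907 TPM, position 15 among all nuclear protein-coding genes. In the second quantification it had 2846 and 3093 TPM and position 3. The transcripts differed as well. Gapdh transcripts fall outside the rule for naming transcripts and were chosen after their values were seen. In the first quantification Gapdh-208, a 483-base processed transcript without a coding sequence, took 67.8% and 64.8% of the gene's TPM, and the coding transcript Gapdh-201 took 30.3% and 32.4%. In the second both were listed at 0, while the coding transcripts Gapdh-203, Gapdh-207 and Gapdh-209 took 28.9 ± 2.3%, 38.8 ± 1.3% and 27.7 ± 1.9%. Gapdh has many near-identical processed pseudogenes: 76 other genes matched Gapdh-201 over 300 bases or more at 95% identity or above, and 85.8% of its 100-base windows occurred exactly in another gene's transcript. Among them Gm7336 was given 213 and 131 reads in the first quantification and 7507 and 7765 in the second. Gapdh and its copies together held 13016 ± 190 reads in the first quantification and 29373 ± 536 in the second. The gap between the quantifications was many times that between the libraries.

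Pgk1, the kinase of the first ATP-forming step, was at 164 and 161 TPM. Pgam1, the mutase of brain and most tissues, was at 249 and 241 TPM, and Pgam2, the muscle mutase, at 2.96 and 2.40 TPM on 45 and 35 counts. Pgam1 thus held 98.9 ± 0.13% of the pair. Eno3, the muscle enolase, was likewise low, at 4.31 and 5.12 TPM on 95 and 104 counts, or 1.22 ± 0.10% of enolase. Of the 6 skeletal muscle markers only Acta1 was detected, and the list summed to 5.70 and 5.09 TPM.

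Eno2 (ENSMUSG00000004267.16, mm10 chromosome 6, 124760053 to 124769673, minus strand) encodes neuron-specific enolase and Eno1 (ENSMUSG00000063524.13, mm10 chromosome 4, 150236721 to 150248879, plus strand) the general isoenzyme of glia and immature neurons. Eno2 was at 227 and 234 TPM and Eno1 at 144 and 157 TPM, so that over all transcripts Eno2 was higher in both libraries and took 59.7 ± 1.1% of enolase. Transcripts not annotated as coding held 22.5 ± 0.49% of the Eno2 TPM and 5.93 ± 2.4% of Eno1. In the second quantification they held 29.5 ± 0.42% and 3.44 ± 0.93%. With those transcripts left out, Eno2 would still lead in the first, but the libraries would give opposite orders in the second. All 6 neuronal markers were detected, with summed levels of 2604 and 2626 TPM.

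The order over all transcripts, with Eno2 above Eno1, holds for the Eno1 record alone. The retrogene Eno1b and the processed pseudogene Gm4735 are near-identical copies of the Eno1 mRNA (99.5% identity over 1736 bases and 99.6% over 1302 bases), and 59.0% of the 100-base windows of Eno1-202 occurred exactly in another gene's transcript. Eno1 was given 5453 and 5487 reads, Eno1b 4437 and 4023, and Gm4735 1684 and 1655. The copies held 51.9 ± 1.4% of the pooled reads. Eno1 alone was 0.653 ± 0.028 times Eno2 in TPM, and with the copies added 1.51 ± 0.0070 times. The second quantification gave ratios of 0.716 ± 0.064 and 1.24 ± 0.094. Over all transcripts, whether Eno1 or Eno2 was the leading enolase turned on whether the TPM of the copies was added to Eno1, in both libraries and both quantifications. The TPM of each copy is scaled by its own length, so these ratios do not show the effect of giving the copies' reads to Eno1.

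The sites that part Eno1 from Gm4735 show how little separates them. Over 1302 aligned bases of Eno1-202 without gaps there were 5 substitutions, with an identical stretch of 725 bases. They are T1124C, T1214G, A1454G, T1622C and C1631T, counted from 1 at the 5′ end of Eno1-202, with the Eno1 base first and the Gm4735 base last. All 5 lie in the Eno1 coding sequence and all 5 were also found in Eno1b. Below are the Eno1 windows of the reference around them, 5′ to 3′ on the plus strand of mm10, with capitals at the bases that differ.
Eno1 exon 8, chr4:150246608-150246648: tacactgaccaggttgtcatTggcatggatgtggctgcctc
Eno1 exon 8, chr4:150246698-150246738: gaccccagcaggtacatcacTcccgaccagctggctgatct
Eno1 exon 9, chr4:150247612-150247652: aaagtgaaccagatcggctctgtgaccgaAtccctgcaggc
Eno1 exon 11, chr4:150248079-150248119: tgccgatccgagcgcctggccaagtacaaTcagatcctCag
Within the aligned stretch, a read that covers none of these 5 bases is the same for Eno1 and Gm4735 in the reference. The mice carry a CAST/EiJ genome too, and alleles were not separated.

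Pkm (ENSMUSG00000032294.17, mm10 chromosome 9, 59656368 to 59679375, plus strand) encodes the enzyme that makes pyruvate and was at 349 and 345 TPM. Its M1 and M2 forms come from a mutually exclusive exon pair: M1 is the form of differentiated tissues such as muscle and adult neurons, and M2, which can be regulated by fructose-1,6-bisphosphate, is the form of embryonic and proliferating cells and astrocytes. The exons are both 167 bases long, are exon 9 of Pkm-202 (M1) and of Pkm-201 (M2), and lie next to each other in the gene. Aligned base by base they differ at 64 positions, which are in capitals below, leaving 61.7% identity.
Pkm M1 exon, chr9:59675029-59675195: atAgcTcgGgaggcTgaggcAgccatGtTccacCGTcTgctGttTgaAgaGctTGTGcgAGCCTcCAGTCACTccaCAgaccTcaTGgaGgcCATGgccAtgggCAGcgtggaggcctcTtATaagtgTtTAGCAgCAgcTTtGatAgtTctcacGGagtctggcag
Pkm M2 exon, chr9:59675568-59675734: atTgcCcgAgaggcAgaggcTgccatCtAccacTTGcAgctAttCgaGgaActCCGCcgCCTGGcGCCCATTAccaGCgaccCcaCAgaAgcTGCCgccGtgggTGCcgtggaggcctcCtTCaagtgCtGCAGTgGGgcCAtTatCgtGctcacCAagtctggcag

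Both forms were present at similar levels. Pkm-201 (M2) was at 172 and 161.5 TPM and Pkm-202 (M1) at 159 and 167 TPM in the first quantification. M2 took 49.2% and 46.8% of the gene and M1 45.5% and 48.4%, so M2 led in replicate 1 and M1 in replicate 2, and the forms were not apart. In the second quantification M2 took 54.8% and 49.4% and M1 39.8% and 41.0%, with M2 ahead in both libraries. Of the sum of both forms, M2 made up 50.5 ± 2.0% in the first and 56.3 ± 2.3% in the second. Of the 11 annotated transcripts, these are the only ones with a whole M1 or M2 exon. In the first quantification the 8 with neither exon took 4.19% and 4.36% of the gene, and the 1 with part of the exon pair 1.11% and 0.469%. The shares rest on more than the exon, because Pkm-201 also begins 205 bases earlier and ends 186 bases later than Pkm-202.

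Lactate dehydrogenase is a tetramer of A subunits (Ldha), classically linked to lactate production, and B subunits (Ldhb), linked to lactate use. Ldha (ENSMUSG00000063229.15) was at 231 and 237 TPM and Ldhb (ENSMUSG00000030246.11) at 223 and 219 TPM. Ldha was slightly higher in both libraries, with 51.4 ± 0.85% of the pair. In the second quantification the order was the opposite: Ldha was at 354 and 348 TPM and Ldhb at 563 and 543 TPM, which gave Ldhb 61.2 ± 0.35%. The reads hardly differed, since Ldhb was given 4902 and 4570 reads in the first and 5067 and 4759 in the second. They were placed on different transcripts. The first put 83.4 ± 0.71% of the Ldhb TPM on the 1304-base Ldhb-201, and the second split it among Ldhb-201 (37.3 ± 0.24%), the 437-base Ldhb-202 (33.7 ± 2.8%) and the 867-base Ldhb-203 (28.6 ± 2.6%). The leading lactate dehydrogenase gene differed between the deposited tables, in both libraries.

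Of the transporters that move lactate and pyruvate across the plasma membrane, Slc16a7 (MCT2, the high-affinity form of neurons) was at 53.4 and 54.3 TPM. Slc16a1 (MCT1, of endothelium and glia) was at 30.5 and 32.1 TPM. Slc16a3 (MCT4, of astrocytes and glycolytic cells) was at 2.38 and 1.31 TPM on 89 and 54 counts. Slc16a7 led with 61.9 ± 0.0090%, Slc16a1 followed with 35.98 ± 0.88% and Slc16a3 had 2.12 ± 0.89%. The order was the same in both libraries and quantifications, and the Slc16a7 share was 67.2% in the second. Bsg, the basigin chaperone that MCT1 and MCT4 need to reach the membrane, was at 329 and 339 TPM, 6.20 ± 0.051 times Slc16a7. Emb, the chaperone preferred by MCT2, was at 8.92 and 10.2 TPM, above Slc16a3.

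The mitochondrial pyruvate carrier is a heterodimer. Mpc1 was at 93.9 and 94.2 TPM and Mpc2 at 66.3 and 60.6 TPM, which gave Mpc1 59.7 ± 1.6%. In the second quantification Mpc1 was lower than Mpc2 in replicate 1 (157 against 168 TPM) and higher in replicate 2 (201 against 152 TPM). Over all transcripts the libraries thus gave opposite orders there. The 493-base Mpc2-203, which is not annotated as coding, held 51.8% and 43.4% of Mpc2 in the second. The coding Mpc2-201 was at 76.7 and 82.1 TPM, below the coding Mpc1-208 at 140.5 and 130.5 TPM in both libraries. The pseudogene Mpc1-ps, 99.7% identical over 330 bases, held 178 and 143 reads in the first and 0 in the second. Adding its TPM to Mpc1 moved the log2 ratio of Mpc1 over Mpc2 from 0.57 to 1.02 in the first. The TPM of Mpc1-ps is scaled by its own short length. It held 26.8 ± 2.5% of the pooled TPM but 9.48 ± 1.1% of the pooled reads, so giving its reads to Mpc1 would move the ratio less.

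The pyruvate dehydrogenase complex turns pyruvate into acetyl-CoA. Pdha1, the X-linked catalytic alpha subunit that carries the regulatory phosphorylation sites, was at 151 and 144.5 TPM. Pdhb, the beta subunit, was at 85.9 and 84.1 TPM. Dlat, the acetyltransferase core, was at 60.2 and 57.6 TPM. The order Pdha1, Pdhb, Dlat was the same in both libraries and quantifications, although alpha and beta subunits are used in equal numbers and Pdha1 exceeded Pdhb 1.74 ± 0.030-fold. The second quantification gave a ratio of 1.39 ± 0.030. These ratios are over all transcripts. For Dlat 41.2 ± 2.4% of the TPM lay on transcripts that are not annotated as coding, for Pdhb 11.9 ± 1.3% and for Pdha1 3.17 ± 1.4%. In the second quantification the shares were 62.7 ± 0.080%, 33.3 ± 2.9% and 4.25 ± 0.85%. There the coding Pdha1-201 was at 203 and 192 TPM and the coding Pdhb-201 at 103 and 95.3 TPM.

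The 4 pyruvate dehydrogenase kinases, which inactivate the complex, were each below its subunits and summed to 59.7 ± 1.1 TPM. Pdk2, the most widely expressed kinase, was at 23.6 and 25.2 TPM. Pdk1 was at 16.2 and 17.6 TPM. Pdk3 was at 14.01 and 12.8 TPM, and Pdk4, which is induced by fasting and fatty acids, at 5.02 and 4.81 TPM. The order Pdk2, Pdk1, Pdk3, Pdk4 was the same in both libraries, with each neighbour within the family apart. Per read rather than per length Pdk1 led, with 1181 and 1204 counts against 898 and 978 for Pdk2. Pdp1, the calcium-activated phosphatase that reverses the kinases and lies outside the 36, was at 28.1 and 26.1 TPM.

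**Figure D2:**
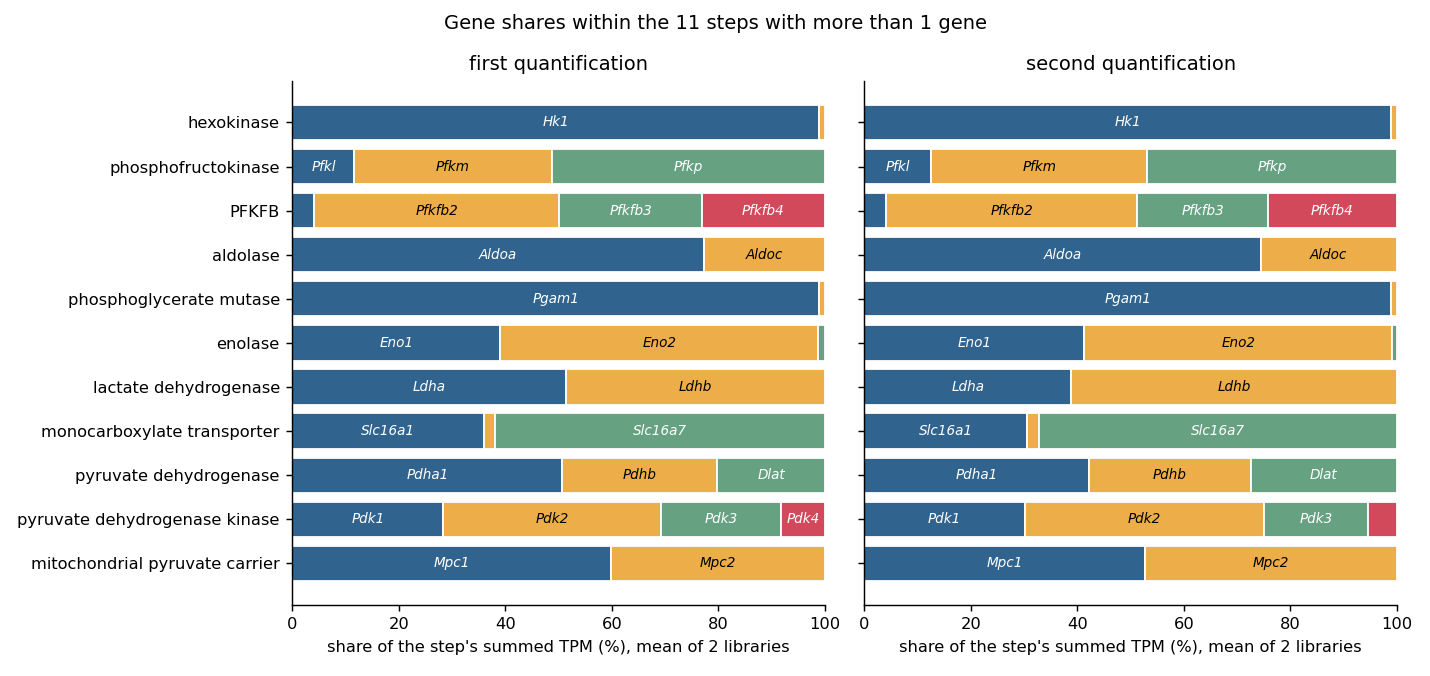
Share of each gene in the summed TPM of its step, as the mean of 2 libraries, in the first (left) and second (right) quantification; shares under about 7% carry no label. Lactate dehydrogenase is the step in which the leading gene differs between the panels, with Ldha at 51.4% on the left and 38.8% on the right.

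To ask how far the libraries differed, log2 ratios of replicate 2 to replicate 1 were taken from TPM plus 0.1, for the 32 of the 36 genes whose counts averaged at least 100. A ratio of 0.2 or more either way was seen for 2 of these 32 genes, beside 19.1% of the nuclear protein-coding genes tested. The median size of the log2 ratio was 0.05 for the 32 genes and 0.09 for all genes tested. The genes tested were not matched to the 32 in level. Of the 36 genes, 16 reached 100 TPM in both libraries, beside 4.22% of nuclear protein-coding genes. The part of level in these differences was not tested. Both genes past the limit were PFKFB kinases and both were higher in replicate 2. Pfkfb3 had a log2 ratio of 0.27 and Pfkfb4 of 0.41, and in CPM they were 1.15 times (95% interval 1.03 to 1.27) and 1.20 times (1.06 to 1.37) as high. These ratios are over all transcripts. Transcripts not annotated as coding held 23.7% and 33.9% of the Pfkfb3 TPM in replicates 1 and 2, and 39.3% and 60.2% of Pfkfb4. The coding Pfkfb4-201 was at 4.23 and 1.96 TPM and the coding Pfkfb4-203 at 1.23 and 2.81 TPM. Apart from Pfkfb3 and Pfkfb4 the ratios ran from -0.13 (Mpc2) to 0.13 (Eno1). In the second quantification the ratio of Pfkfb4 was 0.16 and that of Pfkfb3 0.24, so that Pfkfb3 was past the limit in both quantifications and Pfkfb4 in the first. Mpc1 (0.36), Pdk1 (0.22) and Pdk3 (-0.35) passed it in the second alone. With expected counts scaled by TMM or by size factors Pfkfb4 stayed past the limit and Pfkfb3 did not. Each animal is 1 library, so no ratio has a replicate check.

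Of the 4 genes with lower counts, Slc16a3 had the largest ratio, -0.81, and its CPM was 0.628 times as high in replicate 2 (95% interval 0.439 to 0.890). Pfkfb1, Pgam2 and Eno3 had CPM ratios whose intervals included 1. Several cell type lists moved between the libraries too. The choroid plexus list summed to 9.94 and 315 TPM, 304 of it Ttr in replicate 2, and all 6 markers were higher there. The erythroid list (1213 and 836 TPM, 0 of 5 higher in replicate 2), the striatal list (149 and 104 TPM, 0 of 6) and the oligodendrocyte list (355 and 304 TPM, 0 of 6) were lower. Neither the microglial (113 and 111 TPM) nor the endothelial list (77.7 and 79.1 TPM) shifted by a similar amount. The part of these lists in the ratios of Pfkfb3, Pfkfb4 and Slc16a3 was not tested.

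**Figure D3:**
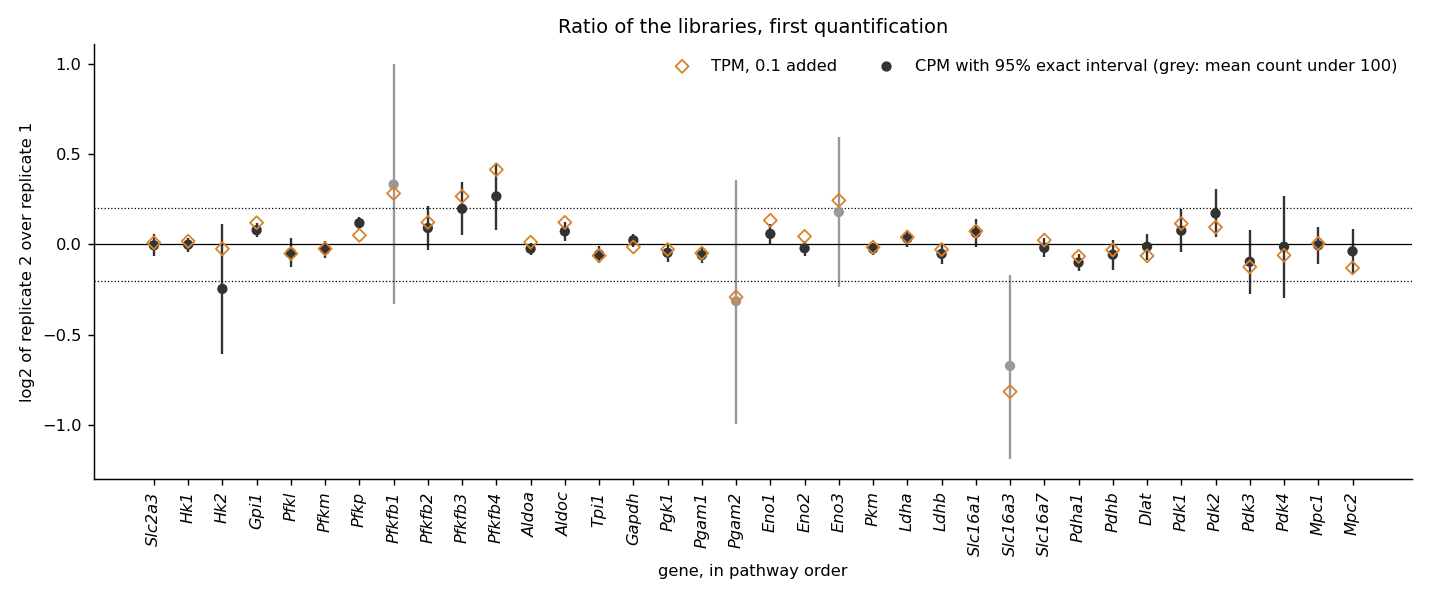
Log2 of replicate 2 over replicate 1 for each gene, from CPM (points with 95% Clopper-Pearson intervals, grey where the mean count is under 100) and from TPM with 0.1 added (diamonds); dotted lines mark 0.2 either way. Pfkfb3 and Pfkfb4 are the black-pointed genes with diamonds past the lines, at 0.27 and 0.41.

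The quantifications differed in scale: for the median nuclear protein-coding gene TPM was 1.52 times as high in the second as in the first. Such genes took 48.0% and 49.0% of all TPM in the first and 78.0% and 79.3% in the second. The median quotient of the 32 genes was 1.74. A quotient of 1.5 or more times the median gene's (2.28 or more) was reached by Gapdh (3.26), Mpc2 (2.52) and Ldhb (2.498), 3 of 32 genes beside 3.65% of nuclear protein-coding genes. Dlat, at 2.28, lay just under the limit. In reads rather than TPM, Gapdh and Eno1 had quotients of 1.75 and 1.35, and the other 30 genes lay between 0.986 and 1.19.

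The transcript with the highest TPM differed between the quantifications for 8 of 31 genes with more than 1 transcript, beside 23.1% of such nuclear protein-coding genes: Gapdh, Gpi1, Hk1, Ldha, Pfkfb3, Pfkfb4, Pfkm and Slc16a7. Hk1-202 led Hk1 in the first quantification with 57.1 ± 6.1%, ahead of Hk1-201 with 32.7 ± 10.0%, while the second gave Hk1-205, Hk1-201 and Hk1-202 near-equal shares of 34.4 ± 2.1%, 32.9 ± 1.7% and 29.1 ± 2.3%. Ldha-202 held 96.5 ± 0.046% of Ldha in the first, against 33.3 ± 6.2% in the second, where Ldha-201 held 53.3 ± 0.23%. For Pfkm the libraries differed in the second, with Pfkm-201 at 48.3% and 16.1% and Pfkm-205 at 24.6% and 50.5%, whereas the first gave Pfkm-201 66.7 ± 0.34% and Pfkm-205 26.6 ± 0.71%. The 785-base Pfkm-204 took 27.1% and 33.3% in the second and was listed at 0 in the first.

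By means over the 2 libraries, the other genes whose transcripts were followed had the same leading transcript in both quantifications. In replicate 2 alone the leader differed for Pkm, as given above, and for Aldoa. Aldoa-201 held 82.8 ± 3.6% of Aldoa in the first quantification and 52.0 ± 15.1% in the second, where Aldoa-202 held 34.8 ± 13.8%, and in replicate 2 of the second Aldoa-202 (44.5%) was above Aldoa-201 (41.4%). Eno1-202 held 87.2 ± 4.5% of Eno1, Pdha1-201 96.8 ± 1.4% of Pdha1 and Mpc1-208 87.7 ± 0.59% of Mpc1. Eno2 was shared among Eno2-201 (48.2 ± 5.6%), the 804-base coding Eno2-213 (20.4 ± 0.25%) and the retained-intron Eno2-210 (10.4% and 9.86%). The coding Eno2-216 took 0.154% and 5.67% in the first and 11.8% and 14.2% in the second. Slc16a1 has a single annotated transcript.

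**Figure D4:**
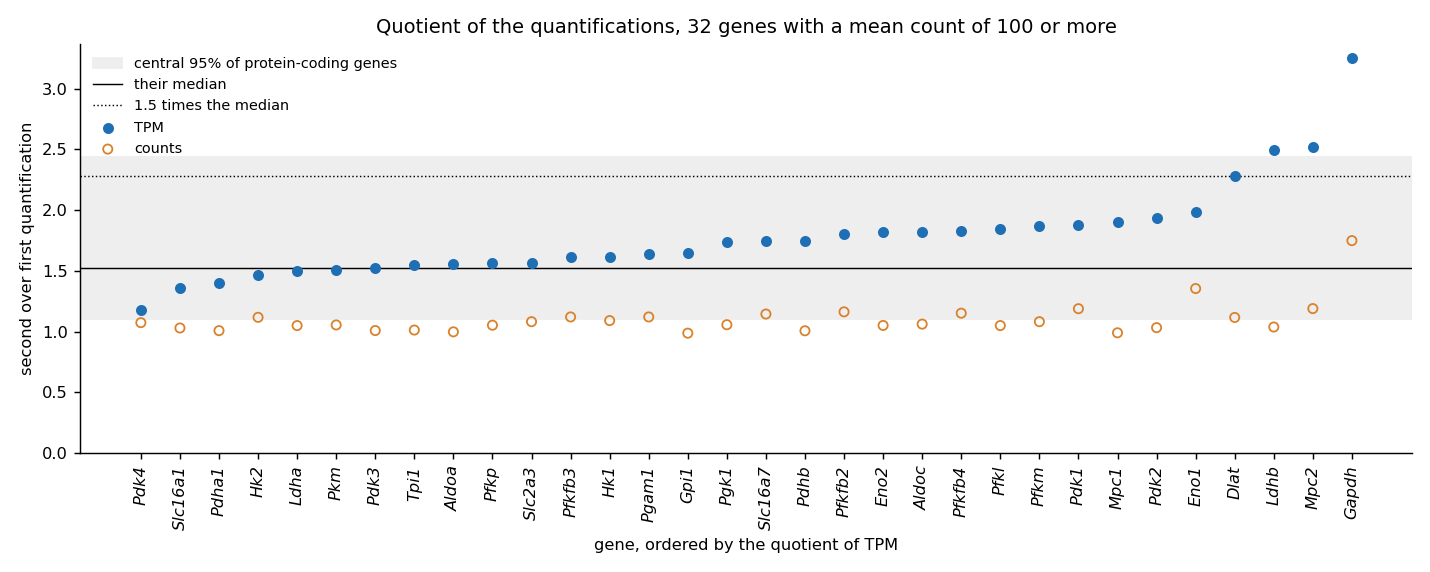
Quotient of the second over the first quantification for the 32 genes with a mean count of 100 or more, in TPM (filled) and in reads (open), with the median (line) and central 95% (grey band) of nuclear protein-coding genes. Gapdh stands highest, at 3.26 in TPM and 1.75 in reads.

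Of the 36 genes, 24 had no other gene aligned over 300 bases at 95% identity and 12 had at least 1 such copy. Copies held more than 5% of the pooled reads in the first quantification for Eno1 (51.9%), Mpc1 (9.48%) and Gapdh (7.70%). In the second they did so for Eno1 (36.7%) and Gapdh (28.5%). By TPM rather than reads, copies passed 5% in the first for Eno1 (56.7%), Mpc1 (26.8%), Pgk1 (6.80%), Pgam1 (6.12%) and Gapdh (5.495%). Pgk1, with 67.0% of its windows found in another gene, had 4.63 ± 0.22% of its pooled reads on copies in the first and 0.0171% in the second. For Pgam1 the values were 39.7% of windows and 2.53 ± 0.22% of reads.

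**Figure D5:**
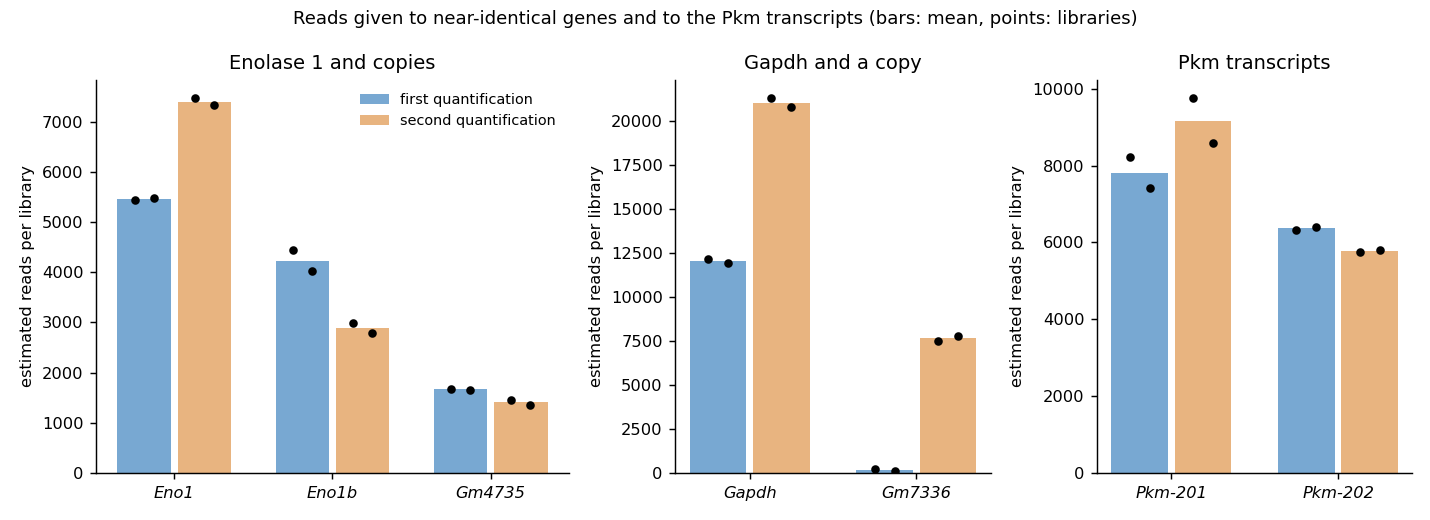
Estimated reads per library for Eno1 and its copies, Gapdh and its copy Gm7336, and the M2 (Pkm-201) and M1 (Pkm-202) transcripts of Pkm, in both quantifications; bars are means and points are the 2 libraries. Gm7336 goes from 213 and 131 reads to 7507 and 7765, and Pkm-202 stays between 5753 and 6395 reads.

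A list of 30 further genes covered the same steps, the pyruvate dehydrogenase phosphatases, and gluconeogenesis and bypass. Of these genes, 14 were detected in both libraries, and 8 were at 10 TPM or more in both: Slc2a1, Bsg, Pdp1, Bpgm, Pdhx, Dld, Pdpr and Pcx. Bpgm, the mutase that makes 2,3-bisphosphoglycerate, was at 37.3 and 36.1 TPM, above Pgam2. Dld, the lipoamide dehydrogenase of the complex, was at 55.5 and 50.8 TPM, and Pdhx, its E3-binding protein, at 32.9 and 33.6 TPM. Pcx, the carboxylase that feeds pyruvate to oxaloacetate in astrocytes, was at 21.8 and 23.7 TPM, and the phosphatase regulator Pdpr at 14.4 and 14.5 TPM. The testis-type genes Pgk2 and Ldhc had 0 counts in both libraries, and so did Pck1 of gluconeogenesis; a count of 0 allows up to 3 reads. Pklr, the pyruvate kinase gene of liver and red cells, was at 0 and 0.0400 TPM.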

How the data were processed

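The authors deposited 3 tables per library built, per the labels and file descriptions, on mm10 and GENCODE M21. Per the file headers, the first quantification gives expected counts, TPM and the percent of a gene held by each transcript (used as a check), and the second gives estimated counts and TPM of transcripts, summed here by gene. The sources used here do not give the programs, their versions or the use of strand. In the first, effective length was length minus 99 bases for transcripts longer than that. TPM covers all records. Unnamed records held 5 counts per library (0.0000157% and 0.0000166%) and ERCC 0.360% and 0.354%. A chi-square over 18515 genes gave 5.06 per degree of freedom between the libraries, so they are not 1 library deposited again.

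Shares are of the summed TPM of a step. Ratios of the libraries used TPM with 0.1 added and a mean count of 100 or more, and CPM intervals are exact binomial at 95%. Copies were found with blastn 2.17.0 (95% identity, 300 bases) from the coding transcript with the most counts. Scaling alternatives used TMM of edgeR 4.0.16 and size factors of DESeq2 1.42.0 on rounded expected counts. Scripts ran in Python 3.11.15 and were tested on simulated data. All 36 genes are reported. Other pathway genes were named at 10 TPM or more, or above a member of their step. Transcripts were named for 12 genes where they led or held 10% or more in both libraries. Other genes and transcripts were chosen after their values were seen. The 36 genes, the lists and the rules were chosen with earlier results of these data known.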

Additional observations from a re-analysis of the deposited data

How the results depend on the processing

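Detection kept between 30 and 36 of the 36 genes in every alternative (30 at 5 TPM). The number of genes differing between the libraries went from 2 to 6 with a count minimum of 20 or none, to 4 in the second quantification and to 1 at a log2 limit of 0.3. The leading gene was that reported in 11 of 11 steps with posterior mean TPM, with either library left out and with both Aldoa records summed (an alternative added after seeing the data), and in 10 of 11 otherwise. The reversals, as log2 ratios, were Ldha over Ldhb at -0.66 in the second quantification, Eno2 over Eno1 at -0.59 with copies added, and Pdk2 over Pdk1 at -0.35 in expected counts. Leaving out 1 of 2 libraries only returns the other's value. Of the other alternatives for such log2 ratios, 22 moved by more than the SD between the libraries with no change of sign and 15 did not. The M2 share of Pkm of 48.0% moved to 52.1% in the second quantification and to 50.5% with M1 and M2 alone as the denominator. TMM and size factors each gave 2 differing genes, Hk2 and Pfkfb4 in place of Pfkfb3 and Pfkfb4, and the ERCC total gave all 3. No paired analysis was possible because there is a single group. Counts under 100 limit Pfkfb1, Pgam2, Eno3 and Slc16a3. The cause of these changes was not tested.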
